A study of Mus musculus with 15 samples.

Results

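The regions described here gained captured 5-hydroxymethylcytosine (5hmC) after repeated cocaine and lay outside every listed region of histone H3 lysine 27 acetylation (H3K27ac). The 5hmC table calls its groups treatment and control and does not name the libraries; treatment was taken as cocaine, as the header of the H3K27ac table has it, and every direction given for 5hmC rests on this. The regions were selected on measured values, with no test: on chromosomes 1 to 19, the mean of 3 cocaine libraries exceeded the mean of 3 saline libraries, and no H3K27ac region overlapped by 1 bp or more. Of 11748 regions in the 5hmC table, 6220 (52.9%) met this rule. They were separated by their saline mean into 1966 gains near zero in saline, with a mean under 1.5 normalised counts, and 4254 gains on an existing level. For reference, 4428 regions outside H3K27ac were lower after cocaine, and 618 gains overlapped an H3K27ac region.

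The study sequenced nucleus accumbens, a part of the ventral striatum, from C57BL/6 mice. Cocaine mice had received 7 daily intraperitoneal injections at 20 mg/kg. The controls are labelled saline and are likewise recorded with 7 daily injections. No allele, transgene or age is stated in the labels, and the groups differ in no other labelled respect. Of the 15 libraries, 3 cocaine and 3 saline libraries hold 5hmC capture, and 3 of each treatment hold H3K27ac ChIP-seq. The labels do not say whether libraries of 1 group came from separate animals, so p-values reflect only how these libraries vary, which may be technical variation. The tables name regions and not genes, so the tissue was not checked against marker genes.

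5hmC is made when the Tet enzymes oxidise 5-methylcytosine. It is abundant in neurons, where it is found in the bodies of expressed genes and at distal regulatory elements, and it can be an intermediate of DNA demethylation as well as a lasting mark. H3K27ac marks active promoters and enhancers, so regions without it include inactive distal elements, gene bodies and intergenic DNA. Capture of 5hmC reads its abundance over a fragment and not at single bases. In bulk tissue, more modified cells and more 5hmC per cell cannot be told apart.

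The values are low counts. Every per-library value was a whole multiple of what 1 read is worth in that library, within 0.1 read, and 1 read was worth 0.961, 1.23 and 0.899 normalised counts in the cocaine libraries and 0.896, 1.03 and 0.987 in the saline libraries. The gains held a median of 26 reads over the 3 cocaine libraries together and 7 over the 3 saline libraries. Intervals given below cover counting error only. The regions were chosen on these same reads, and the intervals make no allowance for that choice, so they are no evidence of a difference. All positions are in mm9. Gene annotation and sequence of that build were not used here.

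Gains near zero in saline consisted of a few reads against about 1. Their median values were 5.76, 6.17 and 5.39 normalised counts in the 3 cocaine libraries and 0.9, 1.03 and 0.99 in the 3 saline libraries. Those values correspond to medians of 6, 5 and 6 reads after cocaine and 1, 1 and 1 after saline. Gains on an existing level had medians of 10.57, 11.11 and 10.78 normalised counts after cocaine and 3.59, 3.09 and 2.96 after saline. In reads, this was 11, 9 and 12 against 4, 3 and 3. The medians of the 3 libraries of a treatment lay close to one another in both classes, which does not show that each gain was even over its libraries.

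**Figure D1:**
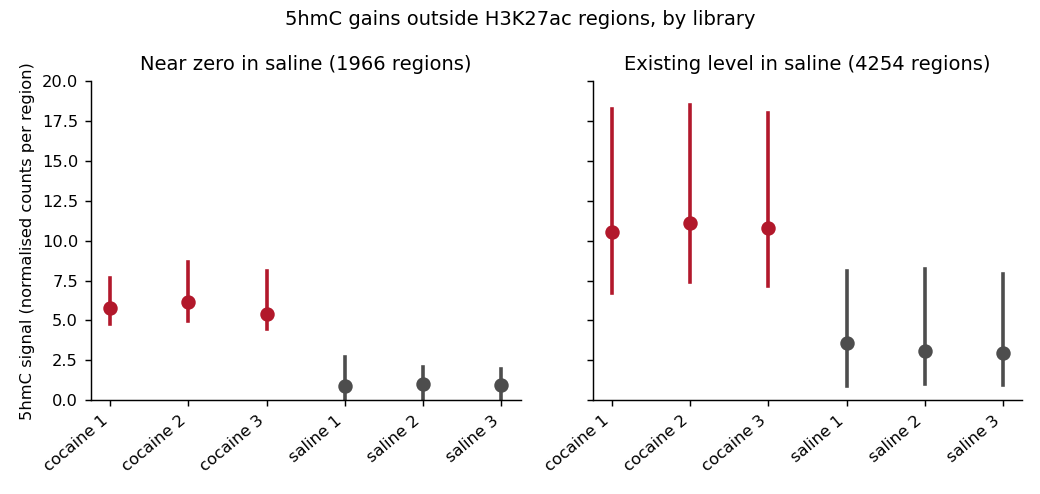
Median 5hmC signal (points, normalised counts per region) and the range from the 10th to the 90th percentile of regions (bars) in each library, for gains near zero in saline and gains on an existing level. The medians near zero lie between 5.39 and 6.17 after cocaine and between 0.9 and 1.03 after saline, and on an existing level between 10.57 and 11.11 and between 2.96 and 3.59.

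The cocaine mean of a gain near zero had a median of 6.19 normalised counts and reached 10.2, whereas that of a gain on an existing level had a median of 11.0 and reached 36.6. The median difference of group means was 5.10 normalised counts near zero and 7.57 on an existing level. The order was the opposite for the ratio: the median ratio of cocaine to saline means was 5.91 over the 1954 gains near zero with a saline read and 3.38 on an existing level. These values chose the regions and separated the classes, so they describe the selection.

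No cocaine library was at 0 in any of the 6220 gains. Each held at least 14 cocaine reads in a list filtered for a difference, so nothing is read from this. In the saline libraries, 521 gains near zero had a read in each library, 1143 had 1 library at 0, 290 had 2 and 12 had all 3 at 0. The empty libraries were spread over the group, with 24.4%, 34.7% and 30.3% of gains near zero at 0 in saline libraries 1, 2 and 3. On an existing level, 3766 of 4254 gains had reads in all 3 saline libraries and 488 had 1 library at 0.

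The gain with the most cocaine reads among the 12 with no saline read was chr4:124398841-124399140, which also had the smallest deposited adjusted p near zero. It held 5.76, 7.41 and 6.29 normalised counts after cocaine, or 19 reads, and 0 in each saline library. With 3 reads taken as the floor of the pooled saline libraries, its depth-scaled ratio was 6.63. This makes no allowance for counting error in the 19 cocaine reads. The other 11 regions with no saline read held 14 to 18 cocaine reads. At chr14:48419421-48419640 the cocaine libraries held 9.61, 4.94 and 8.09 normalised counts and the saline libraries 0, 1.03 and 0. That is 23 reads against 1, a depth-scaled ratio of 24.1 whose 95% interval ran from 3.91 to 991.

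The highest and longest gain near zero was chr11:64713861-64714220, 360 bp long, with 13.45, 9.88 and 7.19 normalised counts after cocaine against 2.69, 1.03 and 0 after saline. Its 30 and 4 reads gave a ratio of 7.85 (95% interval 2.76 to 30.7). The highest and lowest cocaine libraries lay further apart than the lowest cocaine and highest saline libraries. By contrast, chr1:82584961-82585200 was even, with 7.69, 7.41 and 7.19 after cocaine and 0.9, 1.03 and 0 after saline. At chr16:44059461-44059740 cocaine library 2 held 14.82, against 6.73 and 7.19 in the others, and all 4 saline reads came from saline library 1.

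Among gains on an existing level, chr17:31975601-31976040 had the largest difference of means, 20.4 normalised counts. Its 440 bp held 28.82, 33.34 and 26.06 normalised counts after cocaine and 8.07, 7.21 and 11.84 after saline, so the groups were far apart. Counted in reads, 86 against 28, the ratio was 3.21 (95% interval 2.08 to 5.11). At chr11:89266621-89267000 the cocaine libraries held 17.29, 17.29 and 16.18 and the saline libraries 3.59, 5.15 and 1.97. At chr4:59346881-59347240 both groups were even, with 15.37, 18.52 and 17.97 against 4.48, 4.12 and 4.93. The third smallest deposited adjusted p belonged to chr7:25348521-25348780, where the cocaine values of 9.61, 11.11 and 14.38 stood against 2.69, 0 and 1.97, just above the limit between the classes.

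**Figure D2:**
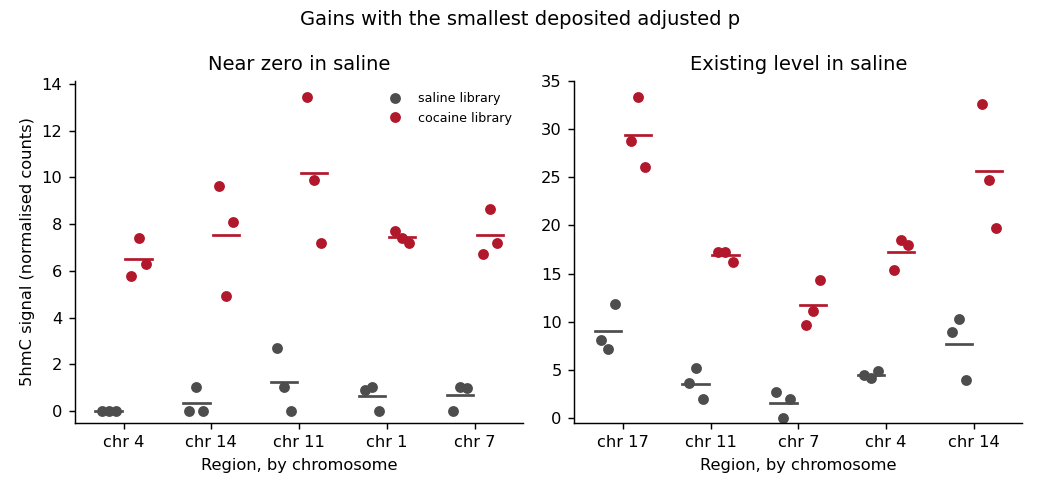
5hmC signal (normalised counts) in each cocaine and saline library (points) with group means (lines) for the 5 gains of each class with the smallest deposited adjusted p, named by chromosome. Cocaine and saline libraries do not overlap in any of the 10 regions, as in 6216 of all 6220 gains. The gains were listed for a difference, so nothing is read from this. The chromosome 4 gain near zero has no read in any saline library.

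The highest cocaine mean was not the clearest gain. At chr5:124528401-124528600 the libraries held 38.43, 34.57 and 36.85 normalised counts after cocaine against 25.1, 16.47 and 23.69 after saline, and its ratio of means, 1.68, was the lowest of all 6220 gains. At chr9:63484201-63484460 the cocaine libraries ranged from 20.67 to 48.04, and the lowest of them stood just above the highest saline value of 19.74. The saline values there were 14.34, 17.5 and 19.74. The longest gain, chr10:98588741-98589240 with 500 bp, held 13.45, 17.29 and 15.28 against 2.69, 3.09 and 4.93.

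The size of a gain followed the saline level in a regular way. Gains with 1 saline read held at least 14 cocaine reads and had a median ratio of 16.8, those with 4 saline reads held at least 18 and had a median ratio of 5.05, and those with 10 to 14 saline reads held at least 30 and had a median ratio of 3.07. The 179 gains with 30 or more saline reads held at least 60 cocaine reads and had a median ratio of 2.05. The lowest cocaine count thus rose with the saline count while the ratio fell, and 67 gains had a ratio under 2, all on an existing level. This lower edge is that of a list already filtered for a difference, so it describes which regions could be listed.

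**Figure D3:**
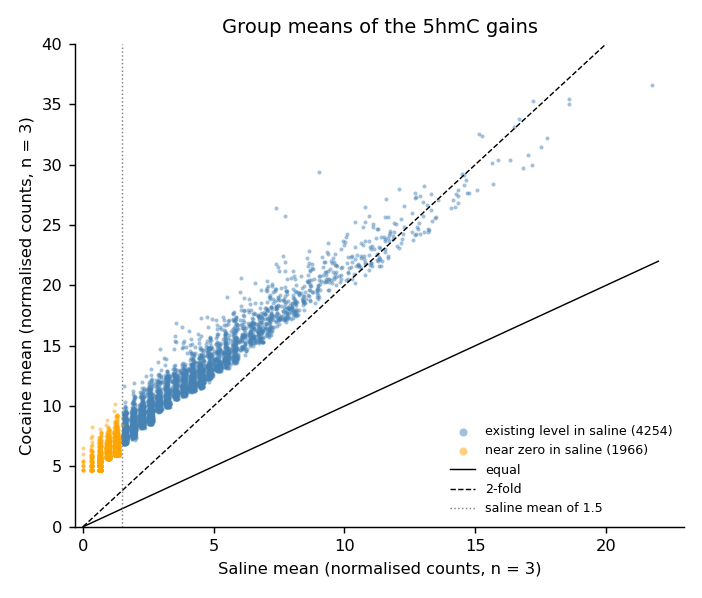
Cocaine mean against saline mean (normalised counts, n = 3 each) for each of the 6220 gains, coloured by class, with lines for equal means and for a ratio of 2. The points form a band with a sharp lower edge that starts at a cocaine mean of 4.74 and crosses the line for a ratio of 2 at high saline means, where 67 gains lie under it.

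The limit between the classes divides like regions. Just below it, chr10:20202181-20202460 had a saline mean of 1.49 from 4.48, 0 and 0 normalised counts, and a cocaine mean of 8.39. Just above it, chr4:142095001-142095220 had a saline mean of 1.53 from 3.59, 0 and 0.99, and a cocaine mean of 8.34. Without saline library 1, 2 or 3 in turn, 1738, 2192 and 2222 gains were near zero, of which 1401, 1725 and 1704 were among the 1966. The direction of the 6220 gains did not change without any one 5hmC library; the choice of regions nearly fixes this, so it is no sign of stability.

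All 3 cocaine values exceeded all 3 saline values in 6216 of the 6220 gains. Over all listed 5hmC regions it held in 58.5%, a share set by how many of them are gains. The groups were separate in the same way in 615 of the 618 gains inside H3K27ac, and in the opposite direction in 4426 of the 4428 losses outside. The lists were filtered for a difference, so nothing is read from these counts. The 4 exceptions, named after their values were seen, were chr1:184348301-184348500, chr16:45372781-45372980, chr2:5857341-5857540 and chr4:142552461-142552660. In each of them 1 cocaine library lay below the highest saline library, as at chr1:184348301-184348500 with 14.41, 4.94 and 14.38 against 1.79, 6.18 and 1.97.

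Over the listed gains, reads varied less between the cocaine libraries than counting alone would make them vary. A ratio of 1 between the variance of reads over 3 libraries and that of counting was approached by the saline values, at 0.936 on average over the gains. The same average was 0.551 for the cocaine values, 0.361 near zero and 0.639 on an existing level. In the losses outside H3K27ac the order was reversed, with 0.475 for saline and 0.974 for cocaine. In both sets the group that was higher was the more even one. The lowest cocaine mean, 4.74 normalised counts, came from 4.8, 4.94 and 4.49, as at chr13:56906181-56906380. Near zero, these were also the 10th percentiles of cocaine libraries 1, 2 and 3. The regions were listed for a difference between these libraries, so the evenness describes the list and not the libraries as a whole. The part of that selection in the evenness was not tested.

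In the authors' deposited table, adjusted p-values of the gains ran from 0.0163 to 0.1495. Only chr17:31975601-31976040 and chr11:89266621-89267000 had an adjusted p below 0.05, at 0.0163 and 0.0253, so 2 of the 6220 gains passed that level. Over all 11748 listed regions 0.0170% were gains with such a value, and since the rule used this contrast nothing is read from the count. Near zero the smallest deposited adjusted p was 0.1204.

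Most gains were as short as a region could be in this table. A length of 200 bp, the width of 1 window, was found in 3503 gains (56.3%), in 69.8% of those near zero and in 50.1% of those on an existing level. Longer gains had higher levels: at 200 bp the median cocaine mean was 8.07 normalised counts, at 240 bp 9.72 and at 300 bp 11.9. Values are per region and were not divided by length. Losses outside H3K27ac had nearly the same share of 200 bp regions, 56.1%.

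Gains were found on every autosome, from 166 on chromosome 19 to 520 on chromosome 2. They made up between 49.5% of the listed 5hmC regions on chromosome 12 and 56.8% on chromosome 6. The share of gains that were near zero ran from 25.7% on chromosome 17 to 37.9% on chromosome 16.

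A minority of gains had another gain close by. With gaps of at most 10000 bp, 635 gains (10.2%) fell into 302 runs, of which 27 held 3 or more. Of these runs, 177 held gains on an existing level alone, 27 held gains near zero alone and 98 held both. No run held more than 4 gains. The shortest run of 4, chr15:75998721-76016660, held gains on an existing level with cocaine means of 9.61 to 24.5 and saline means of 2.96 to 11.7 normalised counts, and no H3K27ac region lay inside its span. The run at chr11:57478401-57496760 had cocaine means of 11.7 to 16.0, saline means of 3.82 to 5.44 and 1 H3K27ac region inside its span. The run at chr8:11316001-11336180 held 1 gain near zero and had 1 loss within 10000 bp. Over all gains, 468 (7.52%) had a loss outside H3K27ac within that distance. Of the 4428 losses, 345 (7.79%) stood in runs of their own kind.

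The gains lay at all distances from H3K27ac. The median distance to the nearest listed H3K27ac region was 18210 bp over all gains, 25620 bp near zero and 16020 bp on an existing level. Under 1000 bp away were 7.56% of gains, and at 100000 bp or more were 16.5%. The share of gains near zero rose with distance, from 23.2% under 1000 bp to 31.0% between 10000 and 50000 bp and 41.1% beyond 100000 bp. Over the same bins the median cocaine mean fell from 10.2 to 7.76 normalised counts and the median saline mean from 2.94 to 1.63. The losses outside H3K27ac had a median distance of 17830 bp and a like rise in the share near zero in cocaine, from 22.1% to 41.9%. Regions are not replicates, and no test was made of these distances.

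**Figure D4:**
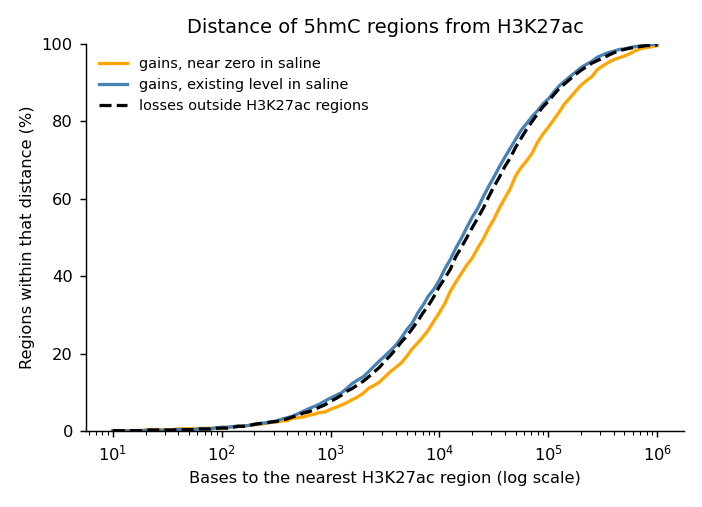
Cumulative share of 5hmC regions (%) by distance in bases to the nearest H3K27ac region (log scale), for both classes of gains and for losses outside H3K27ac. The curve for gains near zero, with a median of 25620 bp, lies to the right of those for gains on an existing level, 16020 bp, and for losses, 17830 bp.

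At the near end, chr5:124528401-124528600 directly adjoined an H3K27ac region without sharing a base. The same held for chr4:125236781-125237100, with 21.14, 24.69 and 21.57 normalised counts after cocaine and 8.96, 5.15 and 8.88 after saline. A gain near zero, chr5:134932901-134933100, also adjoined one and held 4.8, 11.11 and 8.09 against 1.79, 1.03 and 0. At the far end, chr7:78282881-78283180 lay 2045220 bp from H3K27ac and held 7.69, 6.17 and 8.09 against 2.69, 0 and 0.99.

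Interval lists named for 5hmC enhancers were also deposited by the authors, 1 cocaine-specific and 1 saline-specific. The sources used here do not say how they were made. They may come from the same 5hmC libraries, so they are no independent evidence of direction. Of the 6220 gains, 154 (2.48%) overlapped the 10575 cocaine-specific intervals and 36 (0.579%) overlapped the 10555 saline-specific intervals, while 0 overlapped both. The 154 intervals concerned were 1.46% of the first list, and the 36 were 0.341% of the second. For the losses outside H3K27ac the counts stood the other way round, with 22 (0.497%) in the cocaine-specific list and 94 (2.12%) in the saline-specific list. Of the gains in the cocaine-specific list, 132 were on an existing level (3.10% of that class) and 22 were near zero (1.12%). These counts were not tested.

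The gain with the highest cocaine mean in the cocaine-specific list was chr7:30961541-30961820, with 26.9, 29.63 and 25.16 normalised counts after cocaine and 17.03, 9.26 and 11.84 after saline. It was followed by chr10:79438581-79438840 with 28.82, 20.99 and 30.55 against 9.86, 15.44 and 17.76. At chr2:18736061-18736380 the groups were further apart, with 21.14, 23.46 and 20.67 against 8.96, 7.21 and 5.92. Gains in the saline-specific list could be as high: chr17:73331521-73331820 held 25.94, 30.87 and 26.06 against 16.14, 12.35 and 15.79.

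H3K27ac beside the gains was read from libraries that took no part in their direction or class. The nearest H3K27ac region within 10000 bp was looked up for 2263 gains, which gave 2159 H3K27ac regions. In limma on log2(value + 1) over all 49712 H3K27ac regions, with Benjamini-Hochberg adjustment, 375 of the 2159 had an adjusted p below 0.05. Of these, 100 (4.63%) were higher after cocaine, where 3.42% of all H3K27ac regions were, and 275 (12.7%) were lower, where 9.62% of all were. The median log2 fold change (cocaine over saline) stood at -0.02 both beside the gains and over all regions. H3K27ac beside 5hmC gains was therefore called lower more often than higher, as it was in the whole table. Both shares stood above those of the table, with 17.4% called in either direction beside 13.0% of all. These differences were not tested.

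The share called was 15.9% beside gains near zero, 17.8% beside gains on an existing level and 16.6% beside losses outside H3K27ac, differences that were not tested. Beside gains near zero, 25 of 596 H3K27ac regions were higher and 70 lower. On an existing level, 77 of 1593 were higher and 207 lower. Beside the losses, 78 of 1609 were higher and 189 lower, and 118 of these regions were neighbours of gains too. By distance from the gain, 12.6% of H3K27ac regions within 1000 bp were called, 17.5% at 1000 to 5000 bp and 20.5% at 5000 to 10000 bp, beside 13.0% over the whole table. The median H3K27ac level was 449 normalised counts beside gains and 514 over all regions; its part in the shares called was not tested.

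**Figure D5:**
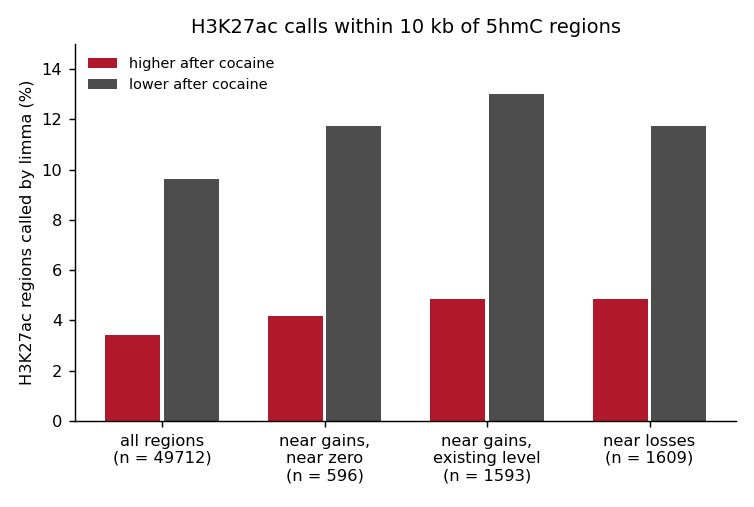
Share of H3K27ac regions (%) called higher or lower after cocaine by limma at an adjusted p below 0.05, over the whole table and over regions within 10000 bp of gains of each class and of losses. Lower calls outnumber higher calls in all 4 sets. The bars beside the gains stand above the 3.42% and 9.62% of the whole table, a difference that was not tested.

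The calls rested in part on single libraries and on variance shared over regions. In 87.3% of the 275 lower neighbours saline library 3 exceeded saline library 2, against 60.9% of all 2159 neighbours. Without saline library 3, 212 neighbours (9.82%, beside 7.43% of all regions) were called. Without cocaine library 1 it was 170 (7.87%, beside 6.20% of all) and without cocaine library 2 185 (8.57%, beside 6.15% of all). Calls were thus fewer over the whole table too. A setting where each region kept its own variance was chosen after seeing the data. In it limma called 0 of the 2159 neighbours and 2 of all 49712 regions after Benjamini-Hochberg adjustment. At an unadjusted p below 0.05 in the same setting there were 475 neighbours. The share over all regions at that level was not computed, so nothing is read from the 475.

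The smallest limma adjusted p beside a gain was at chr5:64359801-64360900, 660 bp from the gain chr5:64358921-64359140. H3K27ac there was 364, 375 and 412 normalised counts after cocaine against 526, 480 and 557 after saline. The groups did not overlap, as in 35.2% of the 2159 neighbours and 29.1% of all H3K27ac regions. H3K27ac at this region fell by 0.44 on the log2 scale (SE 0.0469, Benjamini-Hochberg adjusted p = 3.82e-17 in limma). Over the other settings (pseudocount, moderation, scaling, filter, and each library left out) that adjusted p ran from 1.42e-18 to 2.90e-10, and with its own variance it was 0.281. The gain itself held 11.53, 13.58 and 10.78 normalised counts of 5hmC after cocaine and 3.59, 6.18 and 3.95 after saline. At chr19:36483701-36484700 H3K27ac was 152, 159 and 170 against 223, 206 and 266, beside a gain with 5hmC means of 10.1 and 2.48. The other 3 regions with the smallest adjusted p, chr8:93431001-93433000, chr3:35652701-35654500 and chr4:102887401-102888400, also fell, by 0.36, 0.36 and 0.37 on the log2 scale. In all 5 the highest H3K27ac value came from saline library 3.

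Higher H3K27ac beside a gain was seen at chr7:146023501-146024500, named after its value was seen, with 190, 193 and 186 normalised counts after cocaine against 150, 139 and 154 after saline. Its log2 fold change was 0.36 (limma, Benjamini-Hochberg adjusted p = 1.38e-05, up to 0.00121 over those settings and 0.281 with its own variance). It lay 760 bp from a gain near zero with 5hmC means of 6.29 and 1.25.

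Other named gains, apart from the longest, had neighbours whose H3K27ac values overlapped between groups or were lower after cocaine. The neighbour of the longest gain, chr10:98588741-98589240, held 393, 376 and 393 normalised counts after cocaine against 366, 369 and 359 after saline. Those groups did not overlap, as in 35.2% of all neighbours, and the limma adjusted p was 0.248 after Benjamini-Hochberg adjustment. Beside chr4:124398841-124399140, a gain with no saline read, H3K27ac was 765, 763 and 757 normalised counts after cocaine and 758, 791 and 824 after saline, with a limma adjusted p of 0.396 after Benjamini-Hochberg adjustment. The region adjoining chr5:124528401-124528600 held 582, 569 and 536 against 500, 543 and 581, with an adjusted p of 0.410 in limma. The single H3K27ac region inside the run at chr11:57478401-57496760 was the neighbour of all 4 of its gains and held 584, 549 and 527 against 529, 519 and 566 (limma adjusted p = 0.559). Beside chr16:44059461-44059740 H3K27ac was lower, with 376, 393 and 432 against 465, 444 and 525 (limma adjusted p = 5.96e-06, up to 0.0124 over those settings and 0.291 with its own variance). Beside chr5:110807901-110808200 it was 482, 471 and 517 against 525, 540 and 597, with a limma adjusted p of 0.00229. Without saline library 3 that adjusted p was 0.108 and without cocaine library 2 it was 0.0595, both from limma.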

How the data were processed

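Capture of 5hmC and ChIP-seq for H3K27ac were analysed in 3 cocaine and 3 saline libraries each. The input libraries and 1 library with conflicting tissue labels entered no comparison. Per the submitters' processing notes, Bowtie 0.12.9 and mm9 were used. Per the file headers, diffReps 1.54 made the H3K27ac table on windows of 1000 bp; no header names the 5hmC caller. Both tables are lists of regions that passed a caller, so "outside H3K27ac" means outside that list.

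The deposited signal of a group is the authors' mean of 3 normalised read counts per region, with the per-library values beside it. The ratio columns deposited by the authors divide group means by a background library, which the sources used here do not name; 1 library is labelled cerebellum input in one field, and whether it served as background is not known. The log2 fold change and the p-value of each 5hmC region are the authors' deposited values. Treatment in the 5hmC table was taken as cocaine from the H3K27ac header. The 5hmC library numbers are positions in the table and the H3K27ac numbers follow the header, and 0 per-library columns were left unused.

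The gains were selected by direction and overlap, split at a saline mean of 1.5, and described without tests. H3K27ac was tested with limma 3.58.1 (R 4.3.3) applied to log2(value + 1) with trend and robust moderation and Benjamini-Hochberg adjustment over all 49712 regions. The procedure was tested on simulated data with the same dispersion in every region. That simulation cannot show how the calls hold where regions differ in variance. In 48862 regions (98.3%) the prior degrees of freedom were infinite, so their variance came from the trend. Adding 1 lowers the H3K27ac fold changes of low regions. With 0.5 or 4 added instead, 375 neighbours were called as well. The 5hmC ratios given here had nothing added.

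Regions named were, in each class, the 5 with the smallest deposited adjusted p, the 3 with the highest cocaine mean, the 3 with the largest difference and the longest 2. Over both classes they were those nearest the limit of 1.5, nearest to and farthest from H3K27ac, highest in each enhancer list, in the 3 largest runs, with the smallest limma adjusted p nearby, or with the largest background over the cocaine mean. Exceptions are said where they stand. The members, lists and rules were chosen with earlier results of these data known. Python 3.11.15, pandas 2.3.3, numpy 2.4.6 and scipy 1.17.1 were used.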

Additional observations from a re-analysis of the deposited data

Results flagged for a closer look

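The deposited ratio columns allow the background value of each of the 6220 gains to be recovered, a measurement that enters no comparison above. In 120 gains (1.93%), of which 93 were near zero in saline and 27 on an existing level, that background exceeded the cocaine mean, and with it both group means. The share was nearly the same in the losses outside H3K27ac, where it exceeded both means in 85 of 4428 (1.92%). Near zero it did so in 4.73% of gains and 4.89% of losses. The background library is not named; whether it is the library labelled as cerebellum input was not tested. Over these 120 it ran from 5.62 to 141.5 normalised counts, with a median of 7.12. The largest was at chr11:3074281-3074640, with a background of 141.5 against 21.14, 18.52 and 19.77 normalised counts in the cocaine libraries and 8.96, 9.26 and 6.91 in the saline libraries. At chr11:3051521-3051760 the background was 53.1 against a cocaine mean of 9.55, and at chr2:77170001-77170200 it was 12.7 against 6.47. Over all 6220 gains the median background was 2.83 normalised counts, and it was 0 in 948 (15.2%). It exceeded the saline mean in 82.0% of gains near zero and in 36.6% of gains on an existing level. The remaining 353 gains near zero all had a background of 0. A single background read was worth 1.42 normalised counts and the classes were cut at 1.5, so nothing is read from this contrast. In the losses outside H3K27ac the background exceeded the cocaine mean in 80.5% of those near zero in cocaine and in 42.3% of the others.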

How the results depend on the processing

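The number of gains was 5745 when an H3K27ac region within 1000 bp removed a region and 6272 when 50% of it had to be covered. It was 2543 with a cocaine mean of at least 10 and 3 with a deposited adjusted p below 0.1, and it stayed at 6220 without any one 5hmC library. Gains near zero numbered 862 under a saline mean of 1 and 2949 under 2, and ran from 1738 to 2222 when 1 library was left out. Within 1000 bp, 250 gains met the cocaine-specific list and 129 the saline-specific list; with 50% coverage the latter count was 20. Of the H3K27ac neighbours, 178 (8.24%, beside 6.56% of all regions) were called by limma at an adjusted p below 0.01. Within 5000 bp 232 were called (16.0%) and within 50000 bp 785 (19.4%), both beside 13.0% of all. With each region's own variance 0 were called, beside 2 of all 49712 regions. Leaving out 1 H3K27ac library gave from 170 calls (7.87%, beside 6.20% of all) to 377 (17.5%, beside 13.9% of all). Without saline library 3 the share was 9.82%, beside 7.43% of all. Other pseudocounts, plain moderation and cyclic loess gave 368 to 396 calls. At or above the first quartile of level, 259 of 1517 neighbours were called (17.1%, beside 12.3% of all regions kept). Of the 259, 37 were higher (14.3%, beside 14.1% of calls over all regions kept). Cyclic loess moved the higher share of calls from 26.7% to 29.0% beside gains and from 26.2% to 36.7% over the table. No paired analysis was possible because replicate numbers are only an order of listing. A count model on recovered reads and a description of sequence content were not run. Depth limits the gains near zero, where 1 read changes a ratio by a large factor.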
